A study of Mus musculus with 25 samples.

Results

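The genes described here are 8 inflammatory chemokines, Ccl3, Ccl4, Ccl5, Ccl6, Ccl9, Cxcl2, Cxcl9 and Cxcl10, chosen by name and matched to Ensembl identifiers through GENCODE vM21. The count table analysed here holds 7 of them among 13641 genes. Cxcl2 is not in that table and is not analysed here. The libraries came from bone marrow long-term hematopoietic stem cells, sorted as Lin−Sca1+cKit+CD48−CD150+ cells in 25 samples from mice engrafted with donor marrow. All labels name SclCre, a Cre recombinase driven by a stem cell element of Scl, and GFP. Donors labelled SclCre;GFP are called WT, those labelled SclCre;V617F;GFP are called VF and carry the inducible JAK2 V617F construct, which tamoxifen switches on. Donors labelled SclCre;V617F;IL-1b-/-GFP (Il1bKO) and SclCre;V617F;IL-1R1-/-GFP (Il1r1KO) carry the same construct and lack interleukin 1β or its receptor. Tamoxifen was started 16 weeks after transplantation. WT_2w, VF_2w, Il1bKO_2w and Il1r1KO_2w are 4 libraries each from 2 weeks after that start, and VF_4w, Il1bKO_4w and Il1r1KO_4w are 3 each from 4 weeks. There is no WT group at 4 weeks. The knockouts were in the donor marrow, and the labels name none in the recipient mice. The 2 times were 2 processing batches per the labels, so time and batch cannot be told apart, and genotypes were compared within a time or as the mean of both within-time differences.

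Chemokines are small secreted proteins that draw leukocytes along gradients by binding G-protein-coupled receptors. The CC chemokines Ccl3 and Ccl4, also called MIP-1α and MIP-1β, and Ccl5 (RANTES) attract monocytes and T cells. Ccl6 and Ccl9 are rodent CC chemokines that bind Ccr1. Cxcl9 and Cxcl10 are ligands of Cxcr3 and classical interferon-induced genes, while Cxcl2 attracts neutrophils through Cxcr2. Interleukin 1 signals through NF-κB, a family of transcription factors that switches on many inflammatory chemokines. In marrow, Ccl3 is known as an inhibitor of stem and progenitor cell proliferation and as a factor made in myeloid neoplasms.

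The libraries held 21990959 to 40178173 counts and 11871 to 13491 detected genes. Il1bKO_4w 5 had both the most counts and the fewest genes. Il1b had 0 reads in all 7 Il1bKO libraries, but WT and VF_2w libraries also had only 0 to 30. In VF_4w it had 19, 391 and 1 reads in replicates 5, 6 and 7. Whole-gene counts of Il1r1 were 271 to 882 reads in Il1r1KO, which does not check its deletion. Reads of the human JAK2 construct (exons 3 to 12) numbered 1 to 20 in WT and 1782 or more in every other library. CreERT2 reads numbered 0 or 1 in WT although its label names SclCre. WT pEGFP reads ran from 83 to 27442, so the WT libraries differ in reads of this construct, for a reason that was not tested. At both times some construct reads also differed between VF and a knockout without overlap. JAK2 reads (exons 3 to 12) numbered 5022 to 5944 in Il1r1KO_2w against 2563 to 3621 in VF_2w, and 2689 to 3804 in Il1bKO_2w. pEGFP reads numbered 24763 to 29413 in Il1r1KO_2w against 10221 to 15390 in VF_2w. CreERT2 reads numbered 14171 to 17240 in Il1bKO_2w against 6132 to 10208 in VF_2w. At 4 weeks pEGFP reads numbered 25645 to 33012 in Il1r1KO_4w against 12901 to 16180 in VF_4w. CreERT2 reads then numbered 14363 to 32987 in Il1bKO_4w against 5382 to 10224 in VF_4w. JAK2 reads of exons 3 to 12 overlapped, at 3133 to 4643 in Il1r1KO_4w and 2990 to 3684 in VF_4w. Those of exons 13 to 25 did not, at 2135 to 2735 against 1396 to 1681. The part of these in the chemokine values was not tested. All 16 long-term stem cell markers were in the table (Procr, Slamf1, Kit, Mecom and others), with a summed level of 2851 to 5476 CPM (a gene’s count relative to its library’s total, scaled by TMM factors). Of 23 T and NK cell markers, 19 were not in the table, Cd3d, Cd3e, Cd4 and Cd8a among them.

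The 5 CC members lie within 138.906 kb of chromosome 11 in mm10, in the order Ccl5 (ENSMUSG00000035042, chr11:83525778-83530518), Ccl9 (ENSMUSG00000019122, chr11:83572919-83578636), Ccl6 (ENSMUSG00000018927, chr11:83587882-83593087), Ccl3 (ENSMUSG00000000982, chr11:83647844-83649355) and Ccl4 (ENSMUSG00000018930, chr11:83662584-83664683). Ccl4 is on the plus strand and the other 4 are on the minus strand. Cxcl9 (ENSMUSG00000029417, chr5:92321347-92328079) and Cxcl10 (ENSMUSG00000034855, chr5:92346638-92348889) lie on the minus strand within 27.543 kb of chromosome 5. All are protein-coding. Cxcl10 shares 133 bases of exon with Art3 on the opposite strand, and because the libraries were unstranded, reads there cannot be told apart.

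Promoter sequences were at hand for 6 of the 8 genes (RefSeq, GRCm38.p6). The 250 bases before the start site are shown for Cxcl9 and Cxcl10, whose reads came mostly from the same library, and for Ccl9, whose high libraries were others. Capitals mark matches, on either strand, to a κB motif, the core of the interferon-stimulated response element (GAAANNGAA), the gamma-activated site (TTCNNNGAA) or the AP-1 motif (TGANTCA).
Cxcl10, chr5:92348890-92349139, minus strand: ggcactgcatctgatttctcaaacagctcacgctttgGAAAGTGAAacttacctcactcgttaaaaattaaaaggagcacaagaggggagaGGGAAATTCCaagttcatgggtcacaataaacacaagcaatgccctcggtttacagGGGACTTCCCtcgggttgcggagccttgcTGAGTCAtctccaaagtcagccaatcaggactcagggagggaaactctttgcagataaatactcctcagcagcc
Cxcl9, chr5:92328080-92328329, minus strand: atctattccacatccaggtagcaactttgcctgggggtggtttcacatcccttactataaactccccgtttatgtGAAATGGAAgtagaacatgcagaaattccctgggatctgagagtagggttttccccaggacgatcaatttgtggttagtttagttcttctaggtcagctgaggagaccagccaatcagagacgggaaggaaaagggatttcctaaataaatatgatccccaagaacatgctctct
Ccl9, chr11:83578637-83578886, minus strand: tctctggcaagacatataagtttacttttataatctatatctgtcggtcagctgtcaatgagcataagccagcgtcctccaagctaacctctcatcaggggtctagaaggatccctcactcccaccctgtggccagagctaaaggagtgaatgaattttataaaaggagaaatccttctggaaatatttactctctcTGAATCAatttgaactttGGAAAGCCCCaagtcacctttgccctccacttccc
The Cxcl10 sequence held 2 κB matches, 1 response element core and 1 AP-1 match, the Cxcl9 sequence held 1 response element core, and the Ccl9 sequence held 1 κB and 1 AP-1 match. Counted from 1 at the 5′ end, the Cxcl10 κB matches began at bases 92 and 148 and the response element core at base 38. In Cxcl9 the core began at base 76. None of these windows held a gamma-activated site match. Among 32851 promoters of the same length, 3.90% held the κB motif, 7.13% the response element core, 7.02% the gamma-activated site and 6.75% AP-1. These are letter matches and no evidence of binding.

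Per kilobase of exon, Ccl4 was the most abundant member, with a median level of 15.6 CPM per kb over the 25 libraries. The medians of Ccl9, Ccl3, Cxcl10 and Ccl5 were 1.498, 1.09, 0.835 and 0.798 CPM per kb, and those of Ccl6 and Cxcl9 were 0.306 and 0. Ccl4 had between 71 and 875 reads in a library. Several others were near zero: 10 reads or fewer were counted in 18 libraries for Cxcl9 (17 of them at 0), in 11 for Ccl6 (6 at 0), in 8 for Ccl5 (3 at 0), in 4 for Cxcl10 (2 at 0), in 3 for Ccl3 (1 at 0) and in 1 for Ccl9 (at 0). A count of 0 allows up to 3 reads, near 0.1 CPM at these depths, for counting error only. The plot of all members by library shows that Ccl4 was measured well above its counting floor in all libraries and that single libraries carry the highest levels of Ccl9, Cxcl9 and Cxcl10.

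**Figure D1:**
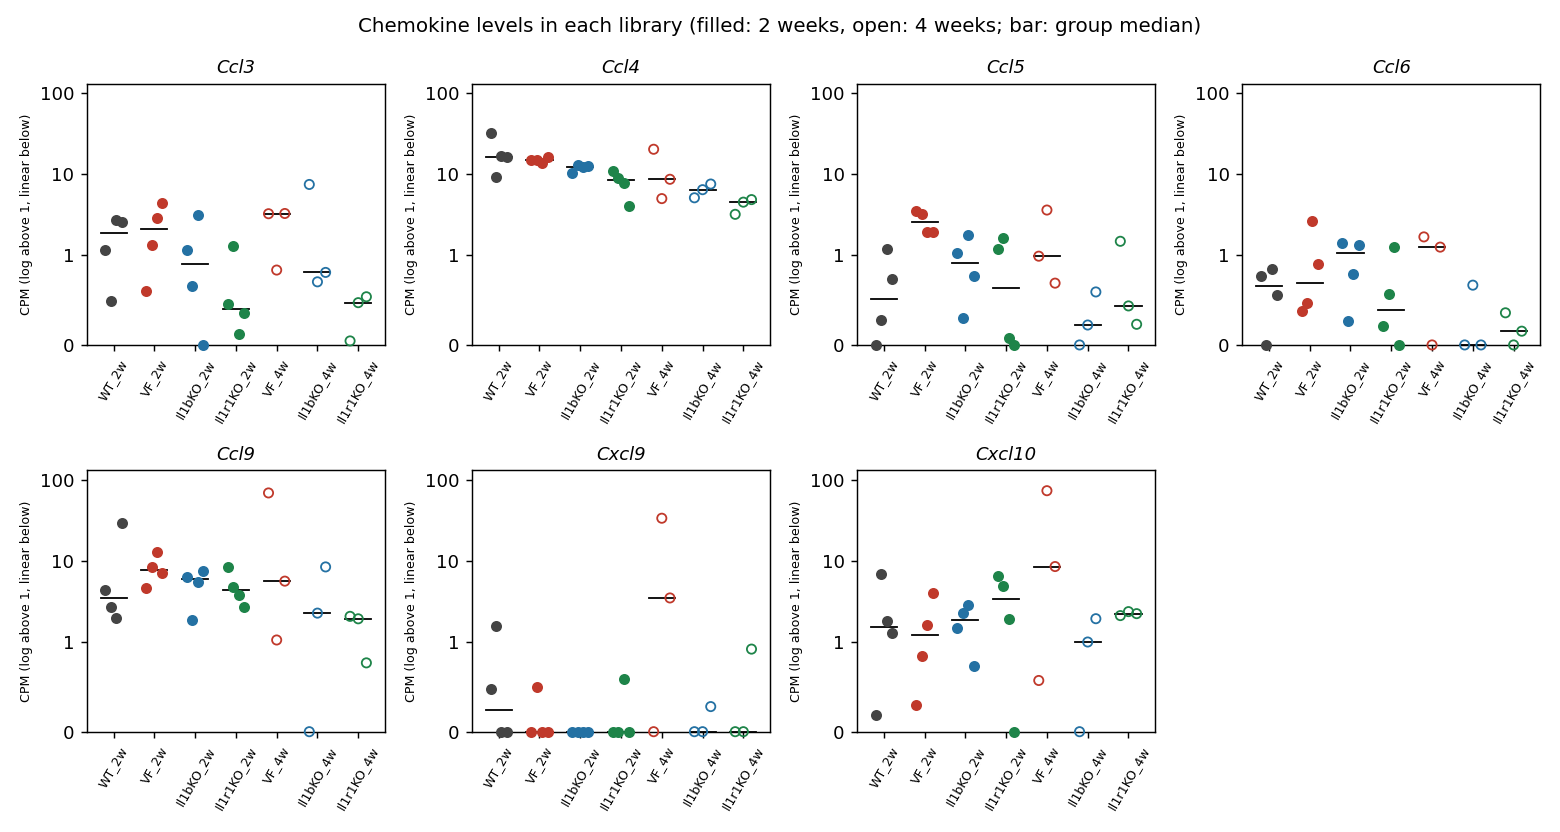
Level of each of the 7 chemokines (y axis: CPM, logarithmic above 1 and linear below) in each of the 25 libraries, by group on the x axis. Filled points are 2 weeks, open points 4 weeks, and bars are group medians. Ccl4 is the member with no library at or near 0, and VF_4w holds the highest point of Ccl9 (68.5 CPM), Cxcl9 (33.4 CPM) and Cxcl10 (73.0 CPM).

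No member passed an adjusted p of 0.05 in any of the 13 comparisons made (edgeR quasi-likelihood test, p adjusted by Benjamini-Hochberg over 13630 genes). An unadjusted p under 0.05 was reached in 20 of the 91 member tests. Over all genes that share ran from 1.36% to 19.3% by comparison. The member tests reuse the same genes and libraries, so the 20 are not independent. DESeq2 called 3 member tests, in comparisons where it called 2.75% of all genes (Il1bKO against VF at 4 weeks), 1.69% (Il1r1KO against VF at 4 weeks) and 1.07% (Il1r1KO against VF over both times). Limma voom with quality weights called 0. A fit without VF_4w 6 and Il1bKO_4w 5, chosen after seeing the data, called Ccl4 and Ccl9 for Il1r1KO against VF at 4 weeks, with 2.97% of all genes, and over both times, with 1.99%. The values below therefore describe levels and their intervals, and a p above the threshold does not show that levels were alike.

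Ccl4, a chemokine made by many activated leukocytes, was lower in libraries without the IL-1 receptor than in VF at both times, though not past the adjusted threshold. At 2 weeks Ccl4 was at 31.8, 9.07, 16.5 and 16.2 CPM in WT and at 14.8, 14.8, 13.7 and 16.3 CPM in VF. It was at 10.3, 12.99, 12.2 and 12.4 CPM in Il1bKO_2w and at 11.004, 8.85, 7.76 and 4.02 CPM in Il1r1KO_2w. Every library of either knockout was below every VF library at 2 weeks, while the WT range enclosed that of VF. Of all genes, 2.08% were so separated from VF in Il1bKO and 2.09% in Il1r1KO. At 4 weeks Ccl4 was at 20.1, 4.96 and 8.58 CPM in VF_4w, at 5.07, 6.38 and 7.50 CPM in Il1bKO_4w and at 3.17, 4.48 and 4.82 CPM in Il1r1KO_4w. Here the Il1r1KO libraries lay below all VF libraries and below all Il1bKO libraries, and the Il1bKO range overlapped VF. The share of all genes that separate the knockouts in this way was not computed. Against VF at 4 weeks, 6.65% of all genes were below every VF library in Il1r1KO and 7.3% in Il1bKO.

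Over both times Ccl4 averaged 13.3 CPM in VF (SD 5.04, n = 7), 9.55 in Il1bKO (SD 3.21, n = 7) and 6.30 in Il1r1KO (SD 2.92, n = 7). The log2 difference of Il1r1KO from VF was −1.17 (SE 0.29, 95% interval −1.78 to −0.56, unadjusted p = 5.8e-04, adjusted p = 0.118). It was −0.91 (SE 0.38, adjusted p = 0.9999) at 2 weeks and −1.43 (SE 0.45, adjusted p = 0.198) at 4 weeks. Leaving out VF_4w 6 brought the difference over both times to −1.35 (SE 0.28) and past the threshold (adjusted p = 0.0254). That fit called 117 genes, 0.858% of those tested, against 23 with all libraries, so calls rose in general. Leaving out VF_4w 5 brought the Ccl4 difference to −0.81 (adjusted p = 0.482). DESeq2 also called it, at an adjusted p of 0.0155. The difference of Il1bKO from VF was −0.57 (SE 0.29, 95% interval −1.17 to 0.03, adjusted p = 0.548), and −0.21 (adjusted p = 0.901) without VF_4w 5. Between the knockouts, Il1r1KO minus Il1bKO was −0.60 (SE 0.29, 95% interval −1.20 to 0.00, unadjusted p = 0.0506, adjusted p = 0.356).

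**Figure D2:**
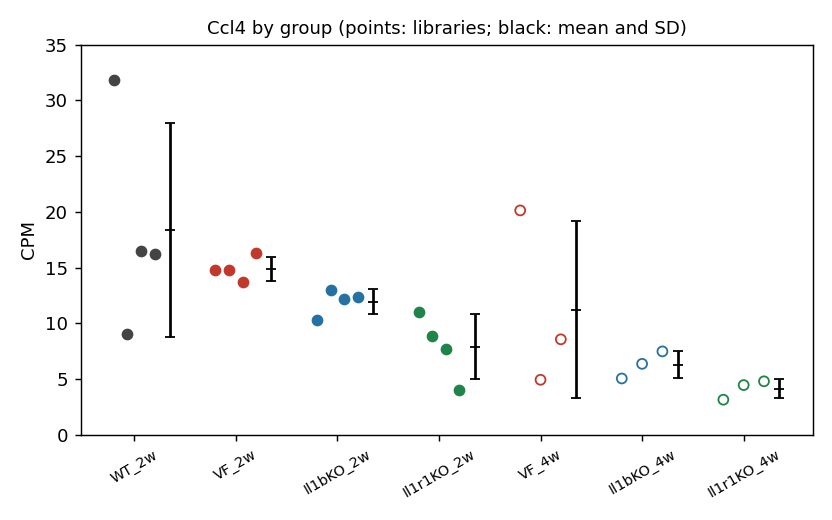
Ccl4 level (y axis: CPM) in each library by group (x axis), with the mean and SD of the group in black. The 4 VF_2w libraries lie between 13.7 and 16.3 CPM, the Il1r1KO_4w libraries between 3.17 and 4.82 CPM, and WT_2w and VF_4w each have 1 library far above the rest, at 31.8 and 20.1 CPM.

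In the order of group means, Ccl4 went from WT_2w (18.4 CPM, SD 9.59) through VF_2w (14.9, SD 1.08), Il1bKO_2w (11.97, SD 1.15), VF_4w (11.2, SD 7.93), Il1r1KO_2w (7.91, SD 2.92) and Il1bKO_4w (6.32, SD 1.22) to Il1r1KO_4w (4.15, SD 0.87). Among neighbours in that order, VF_2w and Il1bKO_2w did not overlap (2.08% of all genes were so separated in this direction). Il1bKO_4w and Il1r1KO_4w did not overlap either, a separation whose share over all genes was not computed. The other neighbours overlapped. VF against WT at 2 weeks gave a log2 difference of −0.31 (SE 0.38, adjusted p = 0.9998), which turned to 0.10 without WT_2w 1. The 4-week level was below the 2-week level by −0.92 (SE 0.42, adjusted p = 0.233) in Il1bKO and by −0.93 (SE 0.42, adjusted p = 0.225) in Il1r1KO, on the log2 scale. In VF this difference was −0.41 (SE 0.41, adjusted p = 0.856).

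Ccl3, the close relative of Ccl4 that binds Ccr1, was low in all groups and lowest in Il1r1KO. It was at 1.16, 0.48, 2.73 and 2.56 CPM in WT, at 0.60, 1.31, 2.84 and 4.34 CPM in VF_2w and at 3.22, 0.83 and 3.25 CPM in VF_4w. In Il1r1KO it was at 0.46, 1.28, 0.12 and 0.35 CPM at 2 weeks and at 0.04, 0.47 and 0.54 CPM at 4 weeks. The groups overlapped at 2 weeks, and at 4 weeks every Il1r1KO library was below every VF library, as in 6.65% of all genes. Over both times the log2 difference of Il1r1KO from VF was −2.40 (SE 0.88, 95% interval −4.24 to −0.57, unadjusted p = 0.0124, adjusted p = 0.314).

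In Il1bKO, Ccl3 was at 1.13, 0.66, 3.15 and 0 CPM at 2 weeks and at 7.41, 0.70 and 0.81 CPM at 4 weeks. The 7.41 CPM of Il1bKO_4w 5 came from 295 reads, the most of any library and 24.7% of all Ccl3 reads. That library stood apart in genes detected and had 0 reads of Ccl5, Ccl6, Ccl9, Cxcl9 and Cxcl10. Il1r1KO minus Il1bKO was −2.11 (SE 0.88, unadjusted p = 0.0245, adjusted p = 0.301) with it and −1.12 (adjusted p = 0.641) without it. Il1bKO differed from VF by −0.29 (SE 0.83, 95% interval −2.01 to 1.42).

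Ccl5, a chemokine best known from T cells and platelets, was higher in VF than in WT at 2 weeks in every library, without passing the test. WT libraries were at 0, 0.28, 1.17 and 0.73 CPM and VF_2w libraries at 3.48, 3.21, 1.91 and 1.94 CPM. These did not overlap, as in 1.87% of all genes in this direction. The log2 difference was 2.27 (SE 1.30, 95% interval −0.41 to 4.95, unadjusted p = 0.0936, adjusted p = 0.9998). Both knockouts were below every VF library at 2 weeks, at 1.06, 0.30, 1.76 and 0.77 CPM in Il1bKO and 1.19, 1.63, 0.08 and 0 CPM in Il1r1KO. Of all genes, 2.08% were so separated in Il1bKO and 2.09% in Il1r1KO. At 4 weeks VF was at 0.99, 3.58 and 0.69 CPM and Il1bKO, at 0, 0.22 and 0.59 CPM, was again below it (7.3% of all genes). Il1r1KO, at 1.47, 0.43 and 0.23 CPM, overlapped VF.

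Over both times the log2 difference of Ccl5 from VF was −2.06 (SE 0.99, 95% interval −4.11 to −0.02, unadjusted p = 0.0483, adjusted p = 0.530) in Il1bKO and −1.58 (SE 0.97, adjusted p = 0.568) in Il1r1KO. These comparisons share the VF libraries, so they are not independent of each other. The highest Ccl5 count of a library was 103 reads. In the order of means, VF_2w (2.63 CPM, SD 0.827) came first and Il1bKO_4w (0.270 CPM, SD 0.297) last, and all neighbours overlapped.

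Ccl9, a Ccr1 ligand made by myeloid cells, had its highest levels in single libraries of WT and VF. It was at 4.33, 2.67, 1.97 and 29.5 CPM in WT, at 4.56, 8.33, 12.7 and 7.05 CPM in VF_2w and at 68.5, 1.05 and 5.59 CPM in VF_4w. VF_4w 5 alone held 1806 reads, 32.6% of all Ccl9 reads. Il1bKO was at 6.37, 1.85, 5.44 and 7.39 CPM at 2 weeks and 0, 2.25 and 8.37 CPM at 4 weeks. Il1r1KO was at 8.45, 4.80, 3.7996 and 2.71 CPM and then 2.05, 1.91 and 0.76 CPM. At each time the ranges of the knockouts overlapped VF, and in Il1r1KO all 4-week libraries were below all 2-week libraries (7.58% of all genes).

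The log2 difference of Ccl9 from VF over both times was −2.35 (SE 0.86, 95% interval −4.13 to −0.58, unadjusted p = 0.0118, adjusted p = 0.313) in Il1r1KO and −1.73 (SE 0.84, adjusted p = 0.533) in Il1bKO. Without VF_4w 5 these were −0.90 (adjusted p = 0.897) and −0.27 (adjusted p = 0.964). At 4 weeks Il1r1KO gave −3.99 (SE 1.39, adjusted p = 0.247), which DESeq2 called (adjusted p = 0.0357), and −1.07 without VF_4w 5. Il1bKO gave −2.82 (SE 1.31, adjusted p = 0.322) at 4 weeks and 0.09 without that library. VF_4w 5 and WT_2w 4 were also highest in Flt3, the receptor tyrosine kinase of multipotent progenitors and dendritic cell precursors, at 220 and 78.1 CPM against 5.38 to 52.4 CPM elsewhere. Of 20 macrophage and dendritic cell markers, 12 were not in the table (Adgre1, C1qa, Itgax and others), and the sum of the 8 others, Flt3 among them, was 285 and 142 CPM in these libraries and 35.01 to 102 CPM in the rest. Most of these sums was Flt3: the other 7 markers came to 64.7 and 63.5 CPM, just above the 20.001 to 59.6 CPM of the rest. The part of such cells in the Ccl9 result was not tested, and in bulk libraries more cells of a type and more RNA per cell cannot be told apart.

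**Figure D3:**
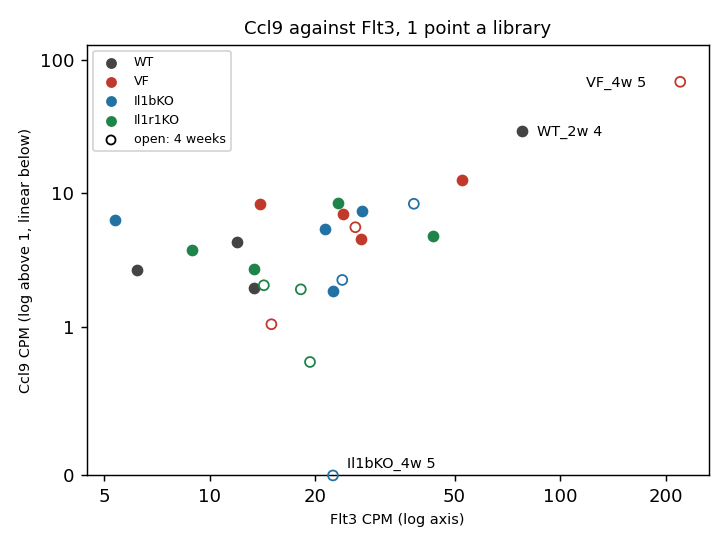
Ccl9 level (y axis: CPM, logarithmic above 1 and linear below) against Flt3 level (x axis: CPM, logarithmic) in the 25 libraries, coloured by genotype with open points for 4 weeks. VF_4w 5 and WT_2w 4 are the highest in both genes, and Il1bKO_4w 5 lies at 0 for Ccl9.

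Across the 25 libraries, Spearman's rho of Ccl9 was 0.52 with Flt3, 0.72 with the summed macrophage and dendritic cell markers, 0.55 with that sum less Flt3, and 0.55 with the summed neutrophil and monocyte markers. These are descriptions, since the libraries share groups and batches. From 2 to 4 weeks in Il1r1KO, where Ccl9 and Ccl4 were lower at 4 weeks, the median log2 difference was −1.59 over 17 neutrophil and monocyte markers (2 above 0) and −1.69 over 8 macrophage and dendritic cell markers (0 above 0), against −0.02 over all genes, and no marker of either list passed. Their part in the Ccl9 and Ccl4 values was not tested. Ccl4 had a rho of 0.53 with the neutrophil and monocyte sum, which was 594 to 905 CPM in Il1r1KO_2w and 519 to 748 CPM in Il1r1KO_4w. That rho was not particular to these markers. Ccl4 also had a rho of 0.50 with the summed long-term stem cell markers and −0.68 with the 4 T and NK cell markers in the table. Its rho with the sum of other chemokine ligands was −0.81. The largest part of that sum was Pf4, a megakaryocyte gene with a median of 72.5 CPM, against 16.2 CPM for the next, Ccl27a.

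Ccl6, the neighbour of Ccl9, was low in all libraries and at 10 reads or fewer in 11 of the 25. Its highest library was VF_2w 3, with 67 reads (2.61 CPM). Group means ran from 1.09 CPM (SD 1.04) in VF_2w to 0.17 CPM (SD 0.179) in Il1r1KO_4w, and each pair of neighbours in that order overlapped. The log2 difference of Il1r1KO from VF over both times was −1.80 (SE 1.21, 95% interval −4.29 to 0.70, adjusted p = 0.610), and that of Il1bKO was −1.17 (SE 1.17, adjusted p = 0.803).

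Cxcl10 and Cxcl9, the interferon-induced Cxcr3 ligands, were high in 1 library, VF_4w 6, and low or at zero elsewhere. Cxcl10 was at 0.57, 73.0 and 8.46 CPM in VF_4w and at 0.30, 0.84, 1.59 and 4.02 CPM in VF_2w. WT was at 0.18, 6.89, 1.79 and 1.28 CPM. The 2018 reads of VF_4w 6 made up 56.2% of all Cxcl10 reads, and VF_4w 5 was below every Il1r1KO library of that time.
In Il1bKO, Cxcl10 was at 1.46, 2.27, 2.81 and 0.73 CPM at 2 weeks and at 0, 0.996 and 1.92 CPM at 4 weeks. In Il1r1KO it was at 6.52, 4.87, 1.88 and 0 CPM and then at 2.10, 2.35 and 2.22 CPM.

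Cxcl9 had 923 reads in VF_4w 6 (33.4 CPM), 79.8% of its reads in all libraries, and 111 in VF_4w 7 (3.46 CPM). VF_4w 5 had 0. The remaining libraries had at most 45 reads, in WT_2w 2. Il1bKO had 0 reads in 6 of 7 libraries and 9 reads in the other, and Il1r1KO had 0 in 5 of 7 and 15 and 24 in the others. With so many zeros no fold is given for Cxcl9. Its unadjusted p was 0.00903 for Il1bKO against VF over both times (adjusted p = 0.397) and 0.129 for Il1r1KO (adjusted p = 0.585).

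At 4 weeks the log2 difference of Cxcl10 from VF was −4.81 (SE 1.68, 95% interval −8.29 to −1.33, unadjusted p = 0.00885, adjusted p = 0.199) in Il1bKO and −3.62 (SE 1.58, adjusted p = 0.345) in Il1r1KO. DESeq2 called the former (adjusted p = 0.0247). Without VF_4w 6 the values were −2.21 (adjusted p = 0.556) and −1.02 (adjusted p = 0.835). At 2 weeks the differences were 0.11 (SE 1.26) in Il1bKO and 0.98 (SE 1.26) in Il1r1KO. The difference between the 2 times was −4.93 (SE 2.02, unadjusted p = 0.0231, adjusted p = 0.532) for Il1bKO and −4.60 (SE 2.00, adjusted p = 0.884) for Il1r1KO, and without VF_4w 6 it was −2.32 and −1.99. Over both times Il1bKO gave −2.35 (SE 1.01, adjusted p = 0.486) and −1.05 without VF_4w 6. Within VF, 4 weeks minus 2 weeks was 4.02 (SE 1.44, unadjusted p = 0.0104, adjusted p = 0.486), and 1.42 without that library.

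VF_4w 6 also stood apart in interferon target genes. Of 28 interferon gamma targets, all in the table, 26 had their highest level there, and their summed level was 17925 CPM against 3261 to 5165 CPM in the other 24 libraries. Among 26 type I interferon targets in the table, 16 were highest there, with a sum of 2561 CPM against 931 to 1791 CPM. The next highest libraries of Cxcl10 lay within the range of the rest in these sums. VF_4w 7 had 4220 CPM of interferon gamma targets and 1237 CPM of type I targets. WT_2w 2 had 5119 and 1601 CPM, near the top of each range. VF_4w 6 also had the highest megakaryocyte and platelet marker sum (3984 CPM against 1070 to 2452 CPM) and the highest level of Art3, whose exon overlaps Cxcl10 (17.0 CPM against at most 6.80 CPM). The part of these in the Cxcl9 and Cxcl10 values was not tested. The T and NK marker sum of VF_4w 6, over the 4 markers in the table, was 79.7 CPM, within the 36.5 to 142 CPM of the rest.

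**Figure D4:**
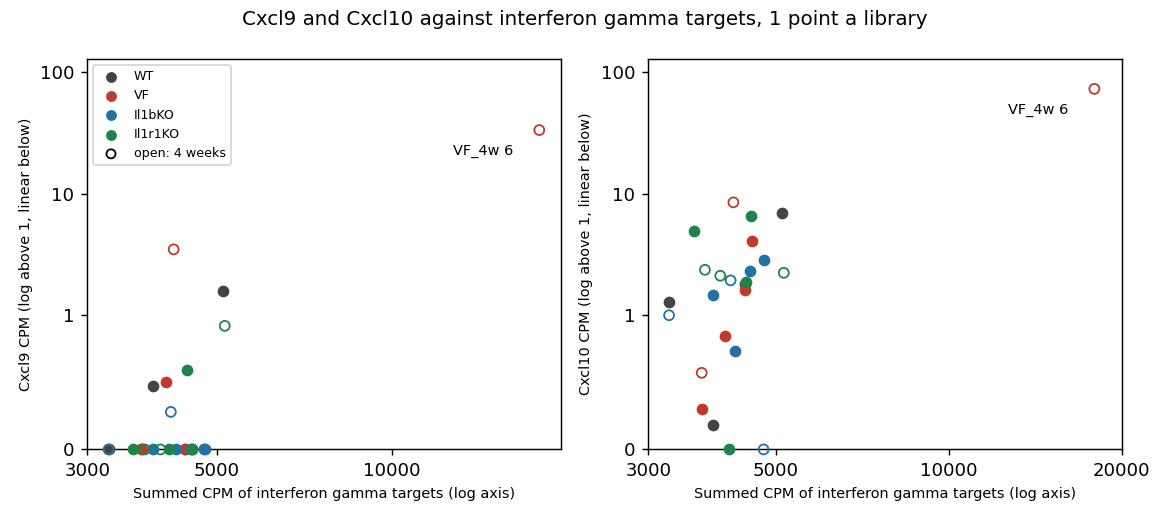
Cxcl9 (left) and Cxcl10 (right) level (y axes: CPM, logarithmic above 1 and linear below) against the summed level of 28 interferon gamma targets (x axes: CPM, logarithmic) in the 25 libraries, coloured by genotype with open points for 4 weeks. VF_4w 6 lies alone at 17925 CPM of targets, and the other libraries show little order between 3261 and 5165 CPM.

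Spearman's rho over the 25 libraries between the interferon gamma target sum and the members was 0.45 for Cxcl10 and 0.39 for Cxcl9, against 0.02 for Ccl3, −0.18 for Ccl4 and −0.34 for Ccl9, as a description of libraries that share groups and batches.

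The counts of members can be read against those of all genes. By adjusted p, 0.00734% of 13630 genes passed for VF against WT and 0.00734% for Il1bKO against VF at 2 weeks, 0.125% for Il1bKO against VF at 4 weeks and 0.139% over both times. For Il1r1KO against VF 0.0514% passed at 2 weeks, 0.147% at 4 weeks and 0.169% over both times, and 0.176% passed between the knockouts. For the difference of the knockout effect between times 0.0147% passed in Il1bKO and 0% in Il1r1KO, where DESeq2 called 22 genes, voom called 5 and 725 had an unadjusted p under 0.05. For 4 weeks against 2 weeks 0.022% passed in VF, 0.748% in Il1bKO and 2.46% in Il1r1KO. With shares this small, 0 of 7 members is near the background in each.

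By unadjusted p under 0.05, 3 of 7 members passed for Il1bKO against VF at 4 weeks (Ccl9, Cxcl9, Cxcl10; 14.7% of all genes) and 3 over both times (Ccl5, Cxcl9, Cxcl10; 9.38%). For Il1r1KO against VF the members were Ccl4 at 2 weeks (3.15% of all genes), Ccl4, Ccl9 and Cxcl10 at 4 weeks (12.7%) and Ccl3, Ccl4 and Ccl9 over both times (11.4%). It was Ccl3 between the knockouts (14.1%), Cxcl9 and Cxcl10 for VF at 4 weeks against 2 weeks (8.48%), and Ccl4 for the same contrast in Il1bKO (19.1%) and Il1r1KO (19.3%). Cxcl10 passed for the difference of the Il1bKO effect (8.28%) and of the Il1r1KO effect (5.32%) between times. No member passed for VF against WT (2.27%) or for Il1bKO against VF at 2 weeks (1.36%).

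By separation of libraries, Ccl5 was higher in every VF than in every WT library, as were 1.87% of all genes. Ccl4 and Ccl5 were below every VF library in Il1bKO at 2 weeks (2.08% of all genes) and in Il1r1KO at 2 weeks (2.09%). Ccl5 was so in Il1bKO at 4 weeks (7.3%), and Ccl3 and Ccl4 in Il1r1KO at 4 weeks (6.65%). Between times, Ccl4 was below every 2-week library in Il1bKO_4w (8.2%) and Ccl9 in Il1r1KO_4w (7.58%). These comparisons reuse the same VF libraries, and all of them were read after the values were known.

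**Figure D5:**
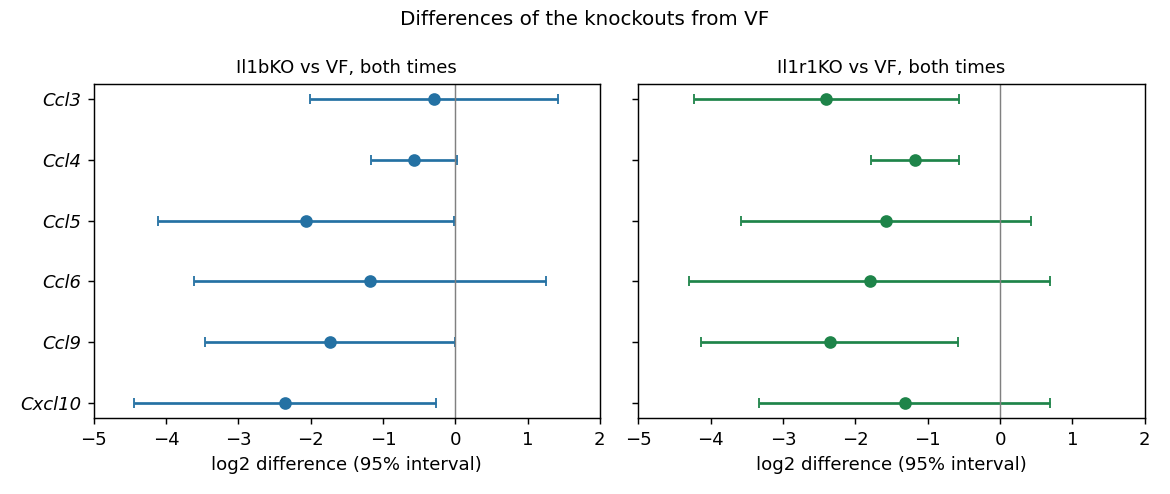
Log2 difference from VF over both times (x axes, with 95% intervals of the edgeR fit) for 6 chemokines (y axis) in Il1bKO (left) and Il1r1KO (right). Both panels use the same VF libraries, so their estimates are not independent. The intervals of Ccl5 and Cxcl10 in Il1bKO and of Ccl3, Ccl4 and Ccl9 in Il1r1KO do not include 0, and none of these passed after adjustment.

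Most of the receptors listed for these chemokines were scarce in the same libraries. Of 8 listed receptors 7 were in the table, and 5 of them, Ccr1, Ccr3, Cxcr2 and Cxcr3 included, had a median below 1 CPM. Ccrl2, which is in the list although it is an atypical receptor that binds chemerin, had a median of 22.3 CPM. Ackr1, the Duffy receptor that binds chemokines without signalling, had a median of 6.29 CPM. The counts and medians of the list include both. None of the 7 passed in a comparison of a knockout with VF, where at most 0.169% of all genes did. Their median log2 difference over both times was −1.74 in Il1bKO and −0.08 in Il1r1KO, against −0.01 and 0.00 over all genes. The fits of the scarce receptors rest on many zeros. Ccr1, the receptor of Ccl3, Ccl6 and Ccl9, had 0 reads in 5 of 7 Il1bKO libraries, 4 of 7 VF libraries and 14 of all 25, so no fold is given (adjusted p = 0.516 for Il1bKO against VF over both times). Its highest library was VF_4w 5 (90 reads, 3.41 CPM), the library highest in Ccl9.

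Among 29 other chemokine ligands 8 were in the table. Pf4, the platelet factor 4 of megakaryocytes, had the highest median (72.5 CPM) and reached 1073 CPM in VF_4w 6. Cxcl3, the neutrophil chemokine related to Cxcl2, had at most 36 reads in a library, and Ccl2, the monocyte chemokine, at most 51. None of the 8 passed in a comparison of a knockout with VF, where at most 0.169% of all genes did. Their median log2 difference over both times was −0.06 in Il1bKO and −0.08 in Il1r1KO, against −0.01 and 0.00 over all genes. The lowest unadjusted p was that of Cxcl3 in Il1bKO (adjusted p = 0.359) and of Ccl25 in Il1r1KO (log2 −0.46, SE 0.20, adjusted p = 0.387). Of the other chemokine receptors 8 of 15 were in the table and none passed there either. Ccr2, the receptor of Ccl2, gave a log2 difference of −3.36 (SE 1.09, adjusted p = 0.251) in Il1r1KO over both times.

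NF-κB targets, the genes that IL-1 signalling is known to switch on, showed no calls between a knockout and VF. Of 24 tested, 0 passed in either direction in any comparison of a knockout with VF. Over all genes at most 0.169% passed in these comparisons, so 0 of 24 is near the background. The median log2 difference over both times was 0.02 in Il1bKO and −0.18 in Il1r1KO, against −0.01 and 0.00 over all genes. At 4 weeks it was −0.06 in Il1bKO (10 of 24 above 0) and −0.35 in Il1r1KO (4 of 24 above 0). Over all genes the 4-week medians were −0.02 and 0.01. At 2 weeks the list's median was 0.03 in Il1bKO and −0.02 in Il1r1KO. Between times, which are also batches, Zfp36, which degrades inflammatory mRNAs, fell from 2 to 4 weeks in VF (log2 −1.89, SE 0.28, adjusted p = 0.00336), Il1bKO (log2 −2.31, SE 0.28, adjusted p = 2.6e-04) and Il1r1KO (log2 −1.996, SE 0.28, adjusted p = 0.00174). It was the only call of the 24 in VF and in Il1bKO, and Nfkbiz and Traf1 also fell in Il1r1KO. Over all genes 0.022% passed between times in VF, 0.748% in Il1bKO and 2.46% in Il1r1KO. Il1b is itself in this list and is deleted in Il1bKO, where its adjusted p over both times was 0.0998. In Il1r1KO, Nfkb1 gave 0.23 (SE 0.08, adjusted p = 0.304) and Birc3, an inhibitor of apoptosis, −0.39 (SE 0.15, adjusted p = 0.343).

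Interferon gamma targets were the pathway list with calls between a knockout and VF, at 4 weeks, and these calls were lost without VF_4w 6. In Il1bKO against VF at 4 weeks 2 of 28 fell and 0 rose: Serpina3f, a serine protease inhibitor (log2 −3.66, SE 0.63, adjusted p = 0.0145), and Gbp4, a guanylate-binding protein (log2 −4.47, SE 0.83, adjusted p = 0.0213). In Il1r1KO at 4 weeks Gbp4 alone fell (log2 −4.28, SE 0.82, adjusted p = 0.0350). Gbp4 was at 250 CPM in VF_4w 6 and at 12.8 and 36.0 CPM in VF_4w 5 and 7, and Serpina3f at 312, 33.3 and 35.3 CPM. The list's median log2 difference at 4 weeks was −1.09 in Il1bKO and −1.14 in Il1r1KO, against −0.02 and 0.01 over all genes. Without VF_4w 6 these medians were 0.03 and 0.11 and 0 of 28 targets passed in either comparison. Gbp4 was then at a log2 difference of −2.44 (SE 0.62, adjusted p = 0.1102) in Il1bKO and −2.25 (SE 0.62, adjusted p = 0.0773) in Il1r1KO. Serpina3f was at −1.78 (SE 0.39, adjusted p = 0.0668) in Il1bKO. At 2 weeks the medians were 0.11 and −0.09 and no target passed. Type I interferon targets had 0 of 26 past the threshold in each of these comparisons.

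Among pairs of members, Ccl4 and its chromosome 11 neighbours had the highest rank correlations. Spearman's rho over the 25 libraries was 0.57 for Ccl4 and Ccl6, 0.55 for Ccl4 and Ccl9, 0.53 for Ccl6 and Ccl9 and 0.46 for Ccl3 and Ccl4. It was 0.35 for Cxcl9 and Cxcl10, 0.24 for Ccl3 and Ccl9, and −0.23 for Ccl4 and Cxcl10. Without Il1bKO_4w 5, Ccl3 and Ccl4 gave 0.57. The points share genotype, batch and depth, and Ccl6 is close to its counting floor.

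The genes most like Ccl4 among 12685 with a mean of at least 1 CPM were Nceh1, a cholesterol ester hydrolase (rho 0.91), Pik3ip1, an inhibitor of phosphoinositide 3-kinase (0.89), and Pnrc1, a nuclear receptor coregulator (0.89). All 3 were also the closest without Il1bKO_4w 5 (0.90, 0.88 and 0.92). These genes are far more abundant, with means of 172, 252 and 317 CPM. Ccl9 was most like Dnajc5 (0.77), Alox5ap (0.76), which activates leukotriene synthesis, and Rmnd5a (0.72), and 2 of these 3 remained without that library. Ccl3 was most like Dop1b (0.76), Nedd9 (0.73) and Idh1 (0.73), of which 0 remained without Il1bKO_4w 5. Ccl5 was most like Scamp2 and Prkra (0.71 each) and Pank3 (0.66), and Cxcl10 was most like Zfp324 (0.71), Gnl1 (0.65) and Eef1akmt4 (0.63). Cxcl9, with 17 libraries tied at 0, was closest to Wars2 (0.69), Selenoi (0.66) and Urb1 (0.64). Each was picked as the highest among 12685 correlations.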

How the data were processed

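Gene-level read counts of 25 libraries were used as deposited. Per the labels' protocols, RNA was isolated with PicoPure and amplified with SMART-Seq v4 into unstranded libraries, and per the submitters' processing notes reads were processed with STAR 2.7.10a, FastQC 0.11.5, featureCounts (version not given in the sources used here) and R 4.2.2, on mm10. The lowest maximum count of a gene was 32 and the lowest total 69, so low genes are not in the table. The 4 construct rows were left out of tests and library sizes.

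Tests used edgeR 4.0.16 in R 4.3.3 (TMM factors, filterByExpr, 1 robust quasi-likelihood fit of 7 groups, 13630 genes, Benjamini-Hochberg at 0.05). CPM are TMM-scaled, SE and intervals are those of the fit, and SDs are over libraries. The labels do not give mouse identities, so p-values measure the spread between these libraries. The test was checked on simulated counts with the same spread for all genes, no outlying libraries and changes only in well-counted genes. That check does not cover members near zero or results that hang on a single library. Alternatives were DESeq2 1.42.0, voom with quality weights in limma 3.58.1, scaling by RLE or by upper quartiles, no filter, CPM of at least 1 in 3 libraries, the compared groups alone, a replicate block, and each library left out. Members and lists were chosen with earlier results of these data known. Of each pathway list the called genes were named (at most 4), or the 2 of lowest p where none was called, printed for the knockouts against VF where a median or count needed an example. Genes of like pattern were the 3 of highest Spearman rho per member with a mean of at least 1 CPM. Promoter letters are from RefSeq (GRCm38.p6). Some genes that these naming rules would pick are not reported here.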

Additional observations from a re-analysis of the deposited data

Results flagged for a closer look

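In groups of 4 libraries, 27 members and groups were searched for a library whose gap to its nearest neighbour exceeds Dixon's 95% critical share of the group's range, and chance alone flags about 1 in 20 groups. Ccl9 in WT_2w 4 was at 29.5 CPM, with the nearest WT library at 4.33 CPM, a gap of 0.914 of the range. That library was also second highest in Flt3. Cxcl9 in VF_2w 2 was at 0.499 CPM (16 reads) and in Il1r1KO_2w 3 at 0.588 CPM (15 reads), with 0 reads in the other 3 libraries of each group. With the others tied at 0, any read gives a gap of the whole range, so the chance rate does not apply to these groups. For the 7 chemokines, no difference of a knockout effect between times passed adjustment.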

How the results depend on the processing

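In the 13 comparisons 0 members were called, and it was above 0 under 3 kinds of setting. DESeq2 called 1 member for Il1bKO against VF at 4 weeks (Cxcl10), 1 for Il1r1KO against VF at 4 weeks (Ccl9) and 1 for Il1r1KO against VF over both times (Ccl4). Leaving out each library in turn gave 0 to 1 members for Il1r1KO against VF over both times, the 1 being Ccl4 without VF_4w 6. A fit without VF_4w 6 and Il1bKO_4w 5, chosen after seeing the data, called 2 for Il1r1KO against VF at 4 weeks and 2 over both times, Ccl4 and Ccl9 in each, where it also called 405 and 272 genes in all (2.97% and 1.99%) against 20 and 23 with all libraries. Of 600 refitted log2 differences of members, 590 kept their direction and their side of the threshold, 8 moved past the threshold and 2 reversed. The reversals were Ccl4 for VF against WT without WT_2w 1 (0.10, range −0.53 to 0.10 over libraries left out in turn) and Ccl9 for Il1bKO against VF at 4 weeks without VF_4w 5 (0.0907, range −4.50 to 0.0907). The cause was not tested. Leaving out WT_2w 3 and WT_2w 4, also chosen after seeing the data, called 0 members. Same-numbered libraries did not deviate together (33 pairs, median r −0.01, 0 over 0.1). No pairing by number was seen, though small correlations over all genes cannot exclude one. With the replicate block, Il1r1KO against VF over both times gave −1.14 for Ccl4 (adjusted p = 0.230) and 0 members were called. Over all genes, calls per comparison ran from 0 to 335 in the edgeR fit, from 8 to 929 with DESeq2, 0 to 510 with voom, 0 to 39 with the compared groups alone and 0 to 20 with the block. None of the 49 group means moved by more than 1 SD without TMM. Without replicate 5 the Ccl3 mean of Il1bKO_4w went from 2.97 to 0.753 CPM. Ccl6, Cxcl9 and Ccl5 are limited by depth, since many of their libraries hold 10 reads or fewer.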
